A study of Mus musculus with 6 samples.

Results

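The glucocorticoid receptor gene and 9 genes that the receptor is known to control or depend on were followed in mouse skin after long treatment with osimertinib. They were taken from the deposited gene table by symbol. All 10 were found among its 33308 genes, and all 10 had a mean of at least 1 FPKM (fragments scaled to gene length and library size) over the 6 libraries, the filter for testing. Osimertinib, a drug for lung cancer, blocks the kinase of the receptor EGFR. RNA-seq covers 6 skin samples, 3 untreated controls and 3 given osimertinib for 42 days, in a study of the drug's skin problems. The sources used here give no strain, age, sex, dose, skin site or hour of collection. They also do not say that samples within a group are different animals, so the p-values reflect only sample-to-sample spread, possibly a technical one.

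Glucocorticoids are steroid hormones that rise with stress and with the time of day. Inside the cell they bind the receptor encoded by Nr3c1, which waits in the cytoplasm in a complex with the chaperone HSP90 and then moves to the nucleus, where it binds DNA and raises or lowers transcription. In skin the pathway is known for limiting inflammation, slowing keratinocyte growth and holding back hair growth, and glucocorticoid creams are given for rashes. The genes studied here are the receptor itself (Nr3c1), classical induced targets (Fkbp5, Tsc22d3, Zbtb16, Per1, Sgk1, Dusp1, Klf9 and Mt2), and Hsd11b1, whose enzyme regenerates active corticosterone from its inert keto form within tissues.

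In control skin, ordered by mean FPKM, a level per gene length, the metallothionein gene Mt2 stood highest at 1046 ± 565 (SD, n = 3, as for all means here). It was followed by Dusp1 at 162 ± 123, Tsc22d3 at 116 ± 31.5, Sgk1 at 55.5 ± 18.2, Per1 at 38.9 ± 18.6 and Klf9 at 20.2 ± 5.06. Fkbp5 at 12.2 ± 2.30, Nr3c1 at 9.89 ± 1.59, Zbtb16 at 9.45 ± 2.28 and Hsd11b1 at 1.85 ± 1.75 came last. The SD range of Dusp1 overlapped those of Tsc22d3, Sgk1 and Per1. Those of Sgk1 and Per1, of Per1 and Klf9, and of Fkbp5, Nr3c1 and Zbtb16 overlapped as well. Such ranges ignore that the genes share libraries. Within each control, Dusp1 and Sgk1 were above Per1, and Fkbp5 was above Nr3c1 and Zbtb16. Dusp1 and Tsc22d3, Dusp1 and Sgk1, Per1 and Klf9, and Nr3c1 and Zbtb16 changed order between controls.

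Promoter windows were read from RefSeq (GRCm38.p6) to show which of these genes carry the receptor's binding letters close to a transcript start. Each window runs from 250 bases before to 50 bases after a start, and 8 of the 10 genes had at least 1 entry, 16 windows in all, with no window for Nr3c1 or Zbtb16. The palindromic glucocorticoid response element (GRE), AGAACA followed by NNN and TGTTCT, was searched on both strands. It occurred in 3 of 32851 mouse promoter windows (0.00913%), and among these genes in 1 of the 6 Sgk1 windows, from position −189 relative to the start. A relaxed form, GNACA followed by NNN and TGTNC, which also matches the stricter form, occurred in 0.475% of windows, and here in the same Sgk1 window and in that of Mt1, the neighbour and paralog of Mt2. A single arm of the palindrome, AGAACA, which every GRE also holds, was in 19% of windows. The windows below carry these letters or, for Fkbp5, Dusp1 and Mt2, other elements named after them. Capitals mark the GRE in Sgk1 and a single arm (TGTTCT, the reverse complement of AGAACA) in the window of the far Tsc22d3 start. In Fkbp5 they mark the E-box CACGTG, which clock factors bind (7.15% of windows), and in Dusp1 the cAMP response element TGACGTCA (1.79% of windows) and the E-box. In Mt2 and Mt1 they mark the metal response elements TGCACNC (12.6%) and TGCGCNC (15.4%), and in Mt1 also the relaxed GRE.
Sgk1, chr10:21993640-21993939, plus strand: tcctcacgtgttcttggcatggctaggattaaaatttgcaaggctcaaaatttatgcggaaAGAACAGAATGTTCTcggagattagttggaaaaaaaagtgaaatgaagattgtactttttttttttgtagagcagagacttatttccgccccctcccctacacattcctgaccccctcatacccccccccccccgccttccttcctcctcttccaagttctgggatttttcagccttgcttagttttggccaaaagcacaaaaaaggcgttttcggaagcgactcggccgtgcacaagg
Tsc22d3, chrX:140600473-140600772, minus strand: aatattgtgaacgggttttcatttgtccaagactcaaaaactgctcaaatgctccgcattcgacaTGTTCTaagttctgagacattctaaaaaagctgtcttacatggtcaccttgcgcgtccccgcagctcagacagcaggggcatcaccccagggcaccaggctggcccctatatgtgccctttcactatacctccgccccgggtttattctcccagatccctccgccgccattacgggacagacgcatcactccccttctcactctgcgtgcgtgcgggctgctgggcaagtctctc
Fkbp5, chr17:28486100-28486399, minus strand: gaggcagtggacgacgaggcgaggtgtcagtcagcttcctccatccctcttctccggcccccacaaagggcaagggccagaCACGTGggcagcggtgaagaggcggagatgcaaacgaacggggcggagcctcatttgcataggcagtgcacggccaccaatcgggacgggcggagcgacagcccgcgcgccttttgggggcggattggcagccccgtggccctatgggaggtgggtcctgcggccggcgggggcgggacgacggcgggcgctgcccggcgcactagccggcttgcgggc
Dusp1, chr17:26508423-26508722, minus strand: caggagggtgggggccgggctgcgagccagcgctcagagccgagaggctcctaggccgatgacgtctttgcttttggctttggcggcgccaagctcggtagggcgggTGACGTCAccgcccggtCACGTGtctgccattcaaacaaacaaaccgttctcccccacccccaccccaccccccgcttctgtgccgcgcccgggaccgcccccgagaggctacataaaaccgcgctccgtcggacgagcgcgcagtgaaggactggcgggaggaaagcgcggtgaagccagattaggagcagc
Mt2, chr8:94172368-94172667, plus strand: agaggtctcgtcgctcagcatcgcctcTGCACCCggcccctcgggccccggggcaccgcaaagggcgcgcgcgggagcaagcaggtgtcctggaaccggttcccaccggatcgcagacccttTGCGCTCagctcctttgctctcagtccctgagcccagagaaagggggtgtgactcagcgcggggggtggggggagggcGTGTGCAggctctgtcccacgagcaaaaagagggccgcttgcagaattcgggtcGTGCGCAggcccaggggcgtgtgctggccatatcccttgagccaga
Mt1, chr8:94178839-94179138, plus strand: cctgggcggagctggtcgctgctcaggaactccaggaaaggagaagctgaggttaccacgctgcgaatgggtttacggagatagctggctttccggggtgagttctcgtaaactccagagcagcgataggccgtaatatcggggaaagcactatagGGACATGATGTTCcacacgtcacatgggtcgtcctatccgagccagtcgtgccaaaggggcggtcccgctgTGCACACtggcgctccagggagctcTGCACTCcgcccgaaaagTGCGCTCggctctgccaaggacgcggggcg
The Fkbp5 window and the other 2 Tsc22d3 windows held none of the 3 forms of the receptor's letters, and 2 further Sgk1 windows held the single arm. A match is only a run of letters, and many binding sites of this receptor are known to lie far from promoters, outside such windows.

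Libraries held between 54112624 and 60719064 counts. They differed in tissue makeup: control 3 held 0.0374% of its count in 15 skeletal muscle marker genes, control 1 held 4.51%, control 2 held 13.2%, and treated skin 4.35% to 7.17%. Markers of keratinocytes, the cells of the epidermis, were present in every library, with a share of 1.24% to 5.37% for 12 genes. Levels are given below as CPM, which are counts relative to the TMM-adjusted library size, and fold changes are osimertinib over control from edgeR's quasi-likelihood test on 13498 genes, with Benjamini-Hochberg adjusted p-values over all of them. In bulk tissue, fewer cells of a type and less RNA per cell cannot be told apart.

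Treated skin had lower levels of the receptor gene and of Fkbp5, Tsc22d3 and Zbtb16, while Dusp1, Per1, Klf9 and Mt2 overlapped between the groups. In edgeR, 0 of the 10 genes passed an adjusted p of 0.05, where 0% of all tested genes did. At an unadjusted p under 0.05, 6 of the 10 were lower and 0 higher, against 6.73% and 7.22% of all tested genes (14% in either direction). DESeq2 called 4 of the 10 as lower (Nr3c1, Fkbp5, Tsc22d3 and Zbtb16) and 0 as higher, against 2.95% and 3.41% of all tested genes (6.36% together). In 6 of the 10 every treated library lay below every control, against 9.38% of all tested genes (20.7% in either direction), and 9 of the 10 had a negative log2 fold change, against 54.7%. Hsd11b1 is among the 6 in both counts although it reached the filter only through control 2 and its closest libraries did not differ beyond counting error, and without it each count was 5 of 9. Their median log2 fold change was −0.91, and that of all tested genes −0.05.

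**Figure D1:**
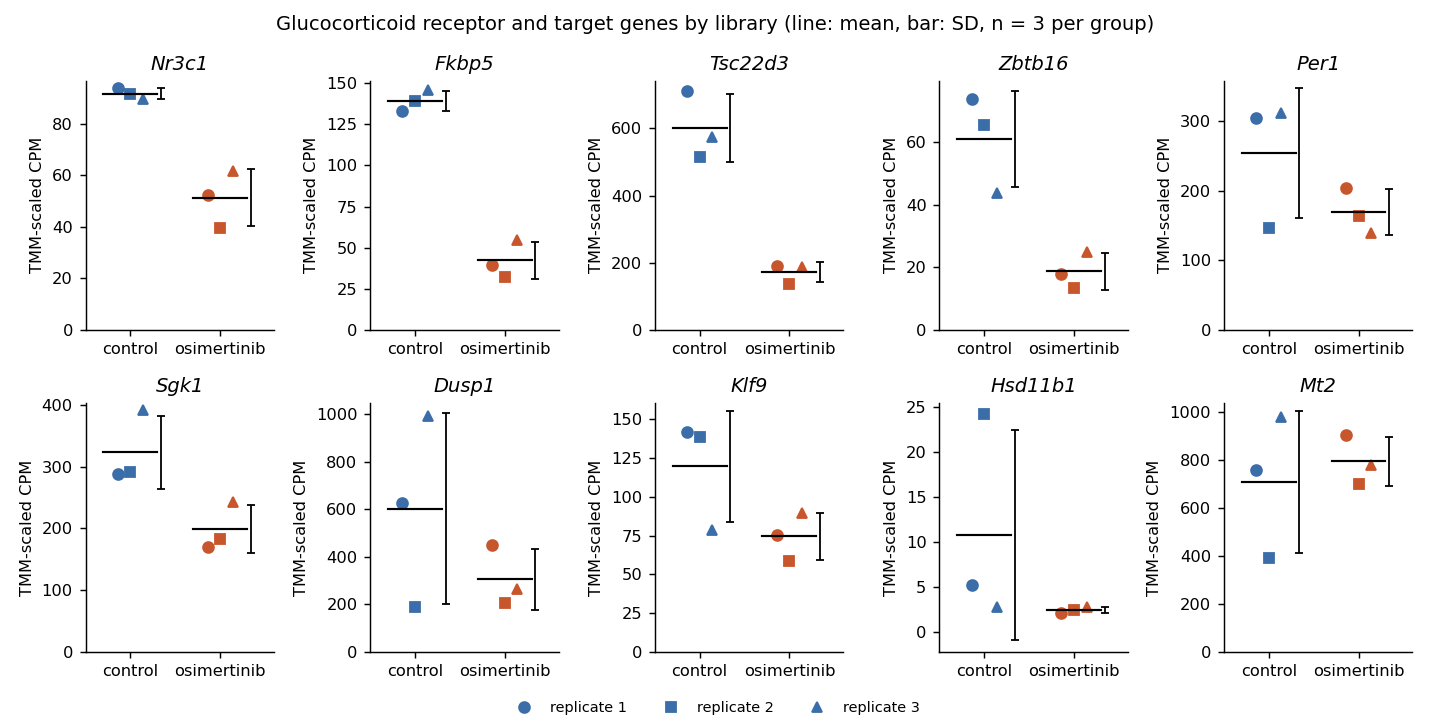
TMM-scaled CPM of each gene (vertical axes, starting at 0 except for Hsd11b1) in the 3 control and 3 osimertinib libraries, with marker shapes for replicates, a line for the mean and a bar for the SD. Nr3c1, Fkbp5, Tsc22d3, Zbtb16 and Sgk1 have groups that do not overlap, Per1, Dusp1, Klf9 and Mt2 overlap, and for Hsd11b1 control 3 (2.81) and osimertinib 3 (2.74) lie within counting error of each other.

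The receptor gene Nr3c1 (ENSMUSG00000024431, chromosome 18, 39410545 to 39519421, minus strand) was at 93.9, 91.3 and 89.6 CPM in controls 1, 2 and 3. It was at 52.4, 39.6 and 61.8 CPM in osimertinib samples 1, 2 and 3. The controls lay within 1.05-fold of each other in CPM (8.08 to 11.1 in FPKM) and every treated library was below them, so the groups did not overlap. The log2 fold change was −0.84 ± 0.20 (SE, n = 3 per group), 1.79-fold lower, with an adjusted p of 0.221 in edgeR and 0.00642 in DESeq2. Over 17 alternative settings the adjusted p ran from 0.00642 to 0.717 and the log2 fold change from −0.98 to −0.68.

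Fkbp5 encodes a co-chaperone that the receptor induces and that in turn lowers the receptor's affinity for hormone, a feedback loop used as a readout of glucocorticoid exposure. The gene (ENSMUSG00000024222, chromosome 17, 28399094 to 28517527) was at 133, 139 and 146 CPM in controls 1, 2 and 3. In treated skin it was at 39.3, 32.4 and 54.8 CPM. The 3 controls agreed within 1.09-fold in CPM and the highest treated library was well under the lowest control. The log2 fold change was −1.73 ± 0.23 (SE, n = 3 per group), 3.31-fold lower, with an adjusted p of 0.13 in edgeR and 6.27e-09 in DESeq2, the highest over 17 alternatives being 0.501. Its edgeR p-value ranked 24 of 13498. Compared per length, Fkbp5 was above Nr3c1 in each control (9.99 to 14.6 against 8.08 to 11.1 FPKM) and below it in each treated library (3.13 to 5.03 against 4.73 to 6.98 FPKM), library by library.

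Tsc22d3 encodes GILZ, a leucine zipper protein that carries part of the anti-inflammatory action of glucocorticoids. This gene (ENSMUSG00000031431, chromosome X, 140539528 to 140600659) was at 713, 516 and 574 CPM in controls 1, 2 and 3. It was at 190, 137 and 187 CPM in osimertinib samples 1, 2 and 3. All treated libraries lay under every control. Its log2 fold change of −1.81 ± 0.25 (SE, n = 3 per group) was 3.51-fold lower, with an adjusted p of 0.134 in edgeR and 3.27e-13 in DESeq2, and 0.536 at the highest over the alternatives. Zbtb16 encodes PLZF, a zinc finger transcription factor strongly induced by glucocorticoids in many cells (ENSMUSG00000066687, chromosome 9, 48654297 to 48836222). It was at 73.8, 65.5 and 43.9 CPM in controls 1, 2 and 3 and at 17.7, 13.3 and 25.0 CPM in osimertinib samples 1, 2 and 3. Control 3, which held little muscle, was the lowest control but still above each treated library. The log2 fold change was −1.71 ± 0.31 (SE, n = 3 per group), with an adjusted p of 0.18 in edgeR and 0.00012 in DESeq2, and 0.661 at the highest over the alternatives. For these 3 targets the fold change kept its sign in all 17 alternatives, between −1.94 and −1.45 for Fkbp5, −1.89 and −1.67 for Tsc22d3, and −1.96 and −1.36 for Zbtb16.

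**Figure D2:**
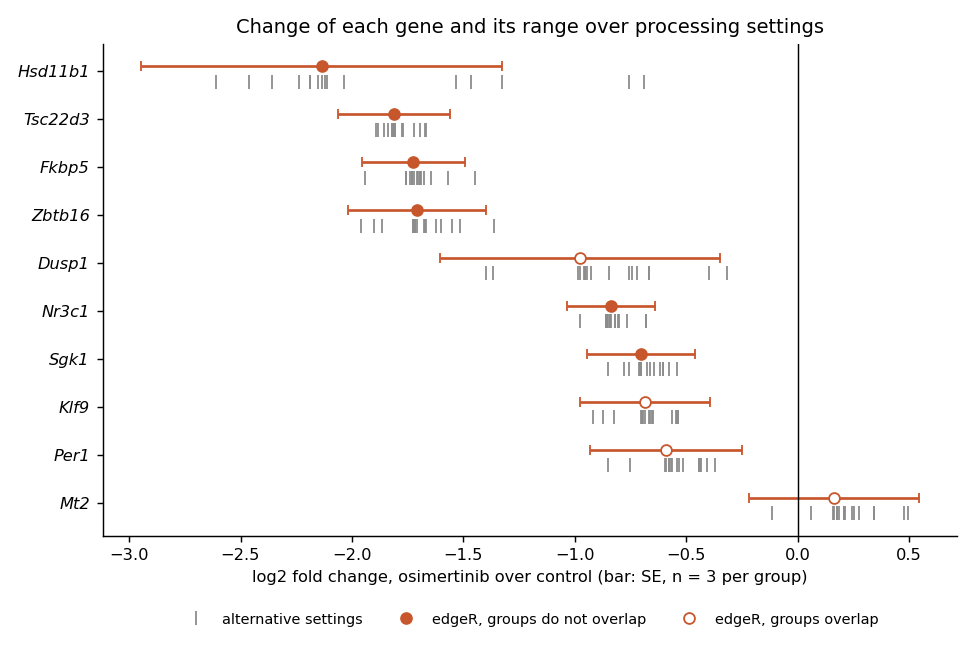
Log2 fold change of each gene, osimertinib over control (horizontal axis), with circles for edgeR and its SE, filled where the groups do not overlap, and grey ticks for the alternative settings. Fkbp5, Tsc22d3 and Zbtb16 stay at −1.36 or below in every setting, whereas Hsd11b1 ranges from −2.61 to −0.69 and Mt2 crosses 0.

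The kinase gene Sgk1, whose product regulates ion channels and cell survival and whose promoter holds the GRE printed above, was at 288, 291 and 391 CPM in controls 1, 2 and 3 (ENSMUSG00000019970, chromosome 10, 21882184 to 21999893). In treated skin it was at 170, 182 and 243 CPM. The groups did not overlap in CPM, but in the deposited FPKM control 2 at 40.3 was under osimertinib 3 at 43.1. The log2 fold change was −0.70 ± 0.24 (SE, n = 3 per group), with an adjusted p of 0.308 in edgeR and 0.0554 in DESeq2, and between 0.0554 and 0.736 over the alternatives. Klf9, a Krüppel-like factor that restrains keratinocyte proliferation (ENSMUSG00000033863, chromosome 19, 23141226 to 23168134), was at 142, 139 and 78.3 CPM in controls 1, 2 and 3. Treated libraries had 75.1, 58.7 and 89.4 CPM, so that control 3 lay among them. Its log2 fold change was −0.69 ± 0.29 (SE, n = 3 per group, edgeR adjusted p = 0.368).

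Dusp1 and Per1 overlapped between the groups, and both differed strongly among controls. Dusp1 encodes a phosphatase that switches off MAP kinases and is induced by glucocorticoids, by growth factors and by stress alike (ENSMUSG00000024190, chromosome 17, 26505590 to 26562128). It was at 628, 187 and 992 CPM in controls 1, 2 and 3, a 5.29-fold range, and at 450, 205 and 263 CPM in treated libraries 1, 2 and 3. The low control 2 lay under every treated library. The log2 fold change was −0.98 ± 0.63 (SE, n = 3 per group, edgeR adjusted p = 0.541), and it became −1.40 without control 2, −0.40 without control 3 and −0.32 with the muscle score as a covariate. Per1 is a repressor of the circadian clock that glucocorticoids induce directly (ENSMUSG00000020893, chromosome 11, 69095217 to 69109960). It was at 304, 147 and 311 CPM in controls 1, 2 and 3 and at 204, 163 and 139 CPM in the treated libraries. Again control 2 was among the treated values, and the log2 fold change was −0.59 ± 0.34 (SE, n = 3 per group, edgeR adjusted p = 0.495), or −0.37 with the muscle covariate.

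Immediate early genes, which cells switch on within minutes of a stimulus, also differed widely among the libraries. The 19 listed genes of this response summed to 7225, 1907 and 12830 CPM in controls 1, 2 and 3, and to 4454, 2913 and 4082 CPM in osimertinib samples 1, 2 and 3. Control 3, highest in this sum, was also highest for Dusp1, Per1 and Sgk1, and control 2, lowest in it, was lowest for Dusp1. Fkbp5 lay between 133 and 146 CPM in these same controls. Of the 19 genes 2 were higher and 17 lower (median log2 fold change −0.64), and 0 had groups that did not overlap. The AP-1 subunit gene Fosb, for example, was at 89.1 to 1932 CPM in controls and 113 to 420 CPM in treated skin. The part of this response in the values of Dusp1, Per1 and Sgk1 was not tested.

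**Figure D3:**
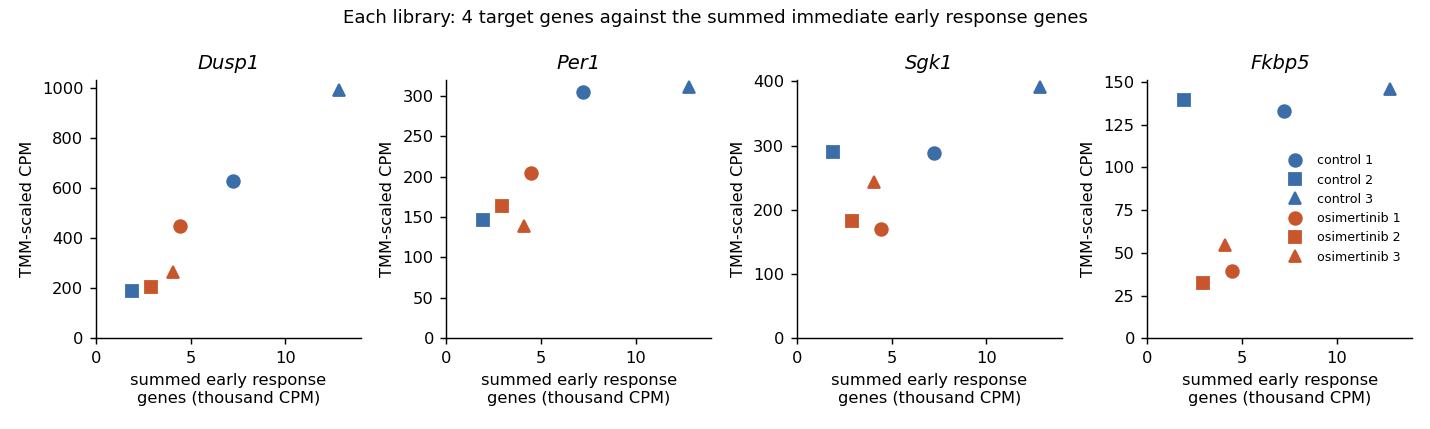
CPM of Dusp1, Per1, Sgk1 and Fkbp5 (vertical axes) against the summed CPM of 19 immediate early genes (horizontal axis) in each of the 6 libraries, blue for control and orange for osimertinib. Dusp1 is highest in control 3 at 992 and lowest in control 2 at 187. Fkbp5 lies between 133 and 146 CPM in the controls.

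Hsd11b1 (ENSMUSG00000016194, chromosome 1, 193221634 to 193243561) was scarce. It was at 5.26, 24.1 and 2.81 CPM in controls 1, 2 and 3 and at 2.08, 2.49 and 2.74 CPM in osimertinib samples 1, 2 and 3. Control 2 stood far above all other libraries, and it passed the filter on mean FPKM only through that library. Control 3 and osimertinib 3 rested on 178 and 168 counts, and their exact 95% Poisson intervals, which cover counting error only, ran from 2.41 to 3.25 and from 2.34 to 3.18 CPM. The 2 libraries were therefore not separated beyond counting error. The log2 fold change of −2.14 ± 0.81 (SE, n = 3 per group, edgeR adjusted p = 0.335) became −0.69 without control 2. Adipocyte marker genes, 12 in the list, summed to 3605, 8799 and 702 CPM in controls 1, 2 and 3 and to 2261 to 3954 CPM in treated skin, so control 2 was also the richest in adipocyte RNA. The part of fat tissue in the Hsd11b1 values was not tested.

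Mt2 was the only one of the 10 with a positive log2 fold change. Metallothioneins bind zinc and copper and are induced by metals as well as by glucocorticoids. Mt2 (ENSMUSG00000031762, chromosome 8, 94172664 to 94173568) was at 757, 391 and 978 CPM in controls 1, 2 and 3 and at 903, 700 and 776 CPM in treated libraries 1, 2 and 3. The groups overlapped fully, with a log2 fold change of 0.16 ± 0.38 (SE, n = 3 per group, edgeR adjusted p = 0.922), or −0.11 without control 2 and 0.48 without control 3. Mt1, its near-identical neighbour with which reads could be shared, had a log2 fold change of −0.15 ± 0.35. Of the 8 other genes listed for the metal response, 5 were higher and 3 lower (median 0.66), and 3 had all treated libraries above all controls, against 11.3% of all tested genes. They were the zinc exporter Slc30a1 (1.53 ± 0.42) and the metal importers Slc39a10 (1.56 ± 0.29) and Slc39a14 (0.49 ± 0.26). For Slc39a14 the closest libraries, osimertinib 1 at 26.02 and control 1 at 25.92 CPM, were nearly equal. In FPKM its groups overlapped, with osimertinib 1 at 2.06 and control 3 at 2.18. DESeq2 called 2 of the 8 as higher, Slc39a10 and Slc30a1 (adjusted p of 0.000333 and 0.0205), against 3.41% of all tested genes. EdgeR called 0, the lowest adjusted p being 0.18. At an unadjusted p under 0.05 in edgeR 3 were higher (Slc39a10, Slc30a1 and Mt4), against 7.22% of all tested genes. Slc39a14 was not among them (unadjusted p = 0.107 in edgeR). Mt4, a further metallothionein gene, had an unadjusted p of 0.0222 in edgeR. It was at 42.48 to 69.96 CPM in controls and at 63.62 to 242.4 CPM in treated skin, so its groups overlapped. The part of metal signals in the values of Mt2 was not tested.

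Other targets that glucocorticoids raise, from a list of 32 genes that leaves out the 10, mostly had lower levels in treated skin. Of 30 tested genes 26 were lower and 4 higher (median log2 fold change −0.56), and 23 of 27 were lower (median −0.58) without those that also stand in the clock, early response or metal lists. EdgeR called 0 of them, with a lowest adjusted p of 0.128, and DESeq2 called 3 lower and 3 higher, where it called 2.95% and 3.41% of all tested genes. At an unadjusted p under 0.05 in edgeR, 9 were lower and 3 higher, against 6.73% and 7.22% of all tested genes. Groups did not overlap in 5 lower genes (Txnip, Bcl6, Ddit4, Sesn1 and Foxo1) and in 3 higher genes, against 9.38% and 11.3% of all tested genes. For Sesn1 the closest libraries were control 2 at 62.4 and osimertinib 3 at 61.2 CPM. In FPKM, Sesn1 and Foxo1 overlapped, with control 2 at 10.6 and 3.94 and osimertinib 2 at 12.8 and 4.57. Txnip, which binds thioredoxin and limits glucose uptake, was at 1336, 1309 and 1565 CPM in controls 1, 2 and 3 and at 370, 296 and 394 CPM in the treated libraries. Every treated value of Txnip was far below every control, and its log2 fold change was −1.99 ± 0.26 (SE, n = 3 per group), with an adjusted p of 0.128 in edgeR and 1.92e-24 in DESeq2. Bcl6, a transcriptional repressor, differed by −0.99 ± 0.15, and Ddit4, an inhibitor of the growth kinase mTOR, by −1.07 ± 0.19.

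The 3 induced targets whose treated libraries all lay above the controls were Lcn2, Gadd45b and Cebpb, a share of the 30 near that of all tested genes. Lcn2, the iron-binding defence protein lipocalin, differed by 3.34 ± 0.76, Gadd45b, a stress sensor, by 0.84 ± 0.18, and Cebpb, an inflammatory transcription factor, by 0.74 ± 0.21 (SE, n = 3 per group). Neutrophil markers, 9 in the list, summed to 12.8 to 39.4 CPM in controls and to 76.7 to 604 CPM in treated skin, and their part in the Lcn2 values was not tested.

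**Figure D4:**
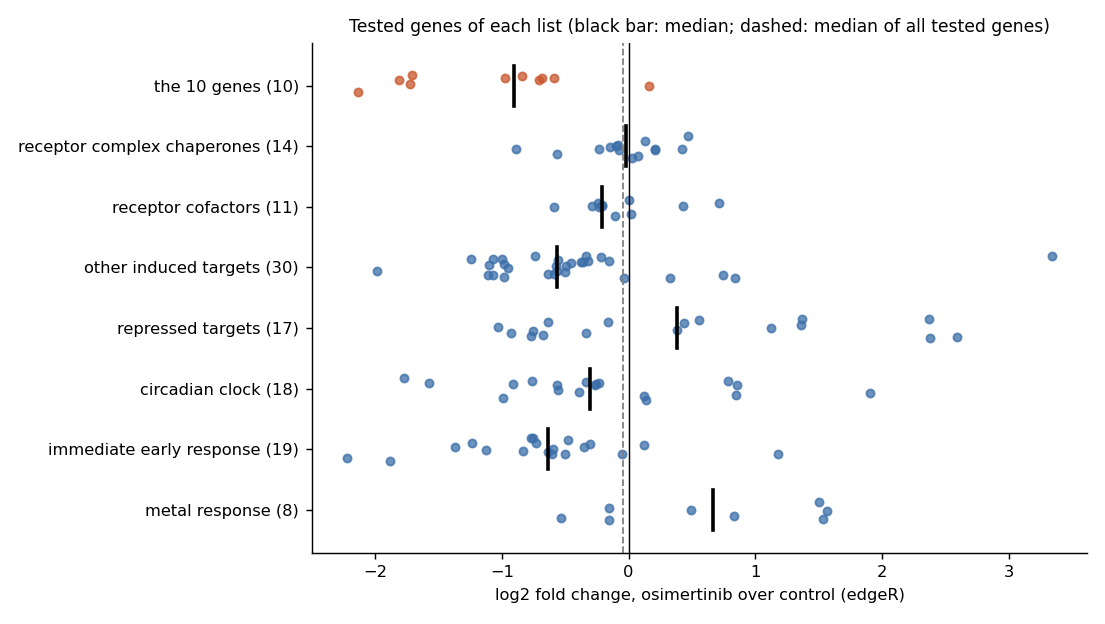
Log2 fold change from edgeR (horizontal axis) of each tested gene in the 10 genes and in 7 pathway lists, with the number tested in parentheses, a black bar for each median and a dashed line for the median of all tested genes. The other induced targets have a median of −0.56, against −0.02 for the chaperones and 0.39 for the repressed targets.

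Genes that glucocorticoids hold down were mixed. Of 17 tested genes 9 were higher and 8 lower (median log2 fold change 0.39). EdgeR called 0, with 2 higher at an unadjusted p under 0.05, against 7.22% of all tested genes. DESeq2 called 2 higher, Krt17 and Cxcl1, against 3.41% of all tested genes. Krt17, a keratin of wounded epidermis and of the hair follicle, was at 369 to 617 CPM in controls and at 1130 to 1592 CPM in treated skin (1.36 ± 0.32, SE, n = 3 per group). The neutrophil chemokine Cxcl1 (2.59 ± 0.93) and the cytokine Il6 (2.38 ± 1.04) were highest in osimertinib 3, at 54.4 and 22.1 CPM, where the summed neutrophil markers were also highest. Il6, counted among the 9 higher, passed the filter on mean FPKM only through that library. It was at 7.91 FPKM there and at 0.164 to 1.12 FPKM in the other libraries. Krt6a (−0.93 ± 0.42) and the collagen gene Col1a1 (−0.67 ± 0.39) were lower in CPM in each treated library than in each control. In FPKM both overlapped, with control 2 at 138 and 85.2 and osimertinib 3 at 169 and 95.9. In CPM, then, groups did not overlap in 2 lower genes of the 17 and in 1 higher gene, Krt17. The shares of all tested genes were 9.38% and 11.3%.

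Genes for the proteins that hold the receptor ready showed little of the difference in RNA seen in its targets. The 14 genes for chaperones of the receptor complex divided into 7 higher and 7 lower (median log2 fold change −0.02). EdgeR called 0, with 1 higher at an unadjusted p under 0.05, against 7.22% of all tested genes. DESeq2 called that gene, Ptges3, where it called 3.41% of all tested genes as higher. Their summed level was 4391 to 5084 CPM in controls and 4423 to 4793 CPM in treated skin, so the ranges overlapped. Fkbp4, the co-chaperone that competes with the Fkbp5 product for the receptor and favours its movement to the nucleus, was at 190, 246 and 187 CPM in controls 1, 2 and 3 and at 255, 318 and 262 CPM in the treated libraries. It lay slightly higher in every treated library, as did the co-chaperone Ptges3, with log2 fold changes of 0.42 ± 0.21 and 0.47 ± 0.17 (SE, n = 3 per group, edgeR adjusted p = 0.435 and 0.325). They were the only 2 of the 14 with groups that did not overlap, a share near the 11.3% of all tested genes that were higher without overlap. The FPKM ratio of Fkbp5 to Fkbp4 was 0.207, 0.167 and 0.230 in controls 1, 2 and 3 and 0.0455, 0.0300 and 0.0618 in treated skin. Among 11 tested cofactors, which the bound receptor recruits to chromatin, 4 were higher and 7 lower (median −0.21). Ep300 was the only one with groups that did not overlap in CPM (−0.21 ± 0.13), where 9.38% of all tested genes were lower without overlap. In FPKM its control 2 at 2.14 lay under osimertinib 2 at 2.76.

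Genes for making, exporting or inactivating the hormone gave little to compare. Only 4 of 14 passed the filter, H6pd, Srd5a1, Star and Abcb1b, with log2 fold changes of −0.26 ± 0.55, 0.20 ± 0.26, −0.22 ± 0.37 and −0.53 ± 0.33 (SE, n = 3 per group). H6pd supplies the cofactor for the Hsd11b1 enzyme and, like Hsd11b1, was highest in control 2 at 49.4 CPM.

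Clock genes, whose daily cycle is shared by circulating glucocorticoids and by Per1, were mixed in direction. Of 18 genes 12 were lower and 6 higher (median −0.30). In CPM, groups did not overlap in 5 lower (Arntl, Clock, Npas2, Cry2 and Nfil3) and 2 higher genes (Dbp and Ciart). The shares of all tested genes were 9.38% and 11.3%. In FPKM, Clock, Npas2, Cry2 and Ciart overlapped. Arntl, the core activator also called BMAL1, was at 36.5 to 48.6 CPM in controls and at 19.9 to 25.5 CPM in treated skin (−0.99 ± 0.19, SE, n = 3 per group). Dbp, an output gene that cycles opposite to it, was at 3.10 to 11.4 CPM in controls and at 21.2 to 42.8 CPM in treated skin (1.91 ± 0.54). Npas2 and Nfil3 differed by −1.77 ± 0.54 and −0.91 ± 0.19. EdgeR called 0 of the 18, with a lowest adjusted p of 0.188. At an unadjusted p under 0.05 in edgeR, 1 was higher and 4 lower, against 7.22% and 6.73% of all tested genes. DESeq2 called 1 higher and 3 lower, against 3.41% and 2.95% of all tested genes. The part of the hour of collection in the values of the glucocorticoid genes was not tested.

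Tissue makeup moved with the groups for some markers and not for others. The 12 keratinocyte genes were all lower (median −1.28), summing to 16701 to 48359 CPM in controls and 12317 to 25750 CPM in treated skin. All 11 hair shaft genes found in the table were higher (median 4.75), from 16.4 to 225 CPM in controls to 604 to 4789 CPM in treated skin. Schwann cell markers summed to 256 to 426 CPM in controls and 121 to 231 CPM in treated skin, and T cell markers to 119 to 268 and 99.5 to 190 CPM. The 11 adipocyte genes tested were all lower (median −0.78), while 54.7% of all tested genes were lower. Groups overlapped in each of them, and the summed adipocyte level in treated skin (2261 to 3954 CPM) lay within that of controls (702 to 8799 CPM). Mast cell markers summed to 21.9 to 27.7 CPM in controls and 43.6 to 66.4 CPM in treated skin. Of the 5 tested mast cell genes, however, 3 were higher and 2 lower (median 0.19). Only 1 of the 5 had all treated libraries above all controls, against 11.3% of all tested genes. None of the genes in these lists was at 0 in all libraries. The controls ranged from 337 to 165170 CPM in the sum of muscle markers and from 16701 to 48359 CPM in that of keratinocytes. Their range was 133 to 146 CPM for Fkbp5, 89.6 to 93.9 for Nr3c1 and 516 to 713 for Tsc22d3. It was 43.9 to 73.8 CPM for Zbtb16 and 78.3 to 142 for Klf9. In the deposited FPKM the controls ran wider, from 9.99 to 14.6 for Fkbp5 and from 8.08 to 11.1 for Nr3c1. In a fit with muscle content as covariate, the log2 fold changes of Nr3c1, Fkbp5, Tsc22d3 and Zbtb16 were −0.86, −1.71, −1.82 and −1.86. The muscle score was −6.247 in control 3 and 0.448 to 2.528 in the other libraries, so this covariate mainly set control 3 apart. Leaving out control 3 gave −0.855, −1.695, −1.837 and −1.899. The part of keratinocyte, hair, fat, mast cell and nerve content in these differences was not tested.

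Among the genes whose pattern over the 6 libraries was most like that of Nr3c1 were Hid1, Cr1l, Nek7 and Lifr, with Pearson correlations of log2 CPM from 0.989 to 0.997. For Fkbp5 they were Ccndbp1, Fmo2, Hid1, Tcn2 and Zfyve16, from 0.988 to 0.995. These points share their libraries, the groups differ in many genes, and 84 and 75 tested genes had a correlation above 0.95 with Nr3c1 and Fkbp5. Among the 10 genes, Nr3c1 correlated with Fkbp5 at 0.979, Zbtb16 at 0.969, Tsc22d3 at 0.958, Sgk1 at 0.87, Klf9 at 0.815, Hsd11b1 at 0.599, Per1 at 0.477, Dusp1 at 0.457 and Mt2 at −0.23, over n = 6 libraries.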

How the data were processed

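Poly(A) RNA was read in pairs on an Illumina NovaSeq from dUTP-marked libraries with molecular identifiers, per the labels' protocols. The submitters' processing notes name cutadapt 1.9 and GRCm38. The sources used here do not name the aligner, the counter, the annotation or any use of strand or identifiers, so overlapping or paralogous genes may share reads. The deposited table holds raw counts per gene and FPKM values computed by the authors, per the file headers. A further 6 value columns match no sample and were not used. Coordinates are those of the table. All 10 starts and 8 of 10 ends equal those of GENCODE mouse release 21.

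Groups came from the sample titles. The 13498 genes whose mean FPKM reached 1 were tested with edgeR 4.0.16 in R 4.3.3 (quasi-likelihood, TMM, no covariate, two-sided, adjusted p threshold 0.05). The SE is the log2 fold change over the square root of F. Alternatives used DESeq2 1.42.0, limma 3.58.1, other scalings and filters, a replicate block, a muscle covariate, gene removal and leaving out each library. The tests were first tested on simulated data. The 10 genes and the 21 lists (9 of pathways, 12 of cell types) were chosen with earlier results of these data known. The text names the 10 genes, up to 4 genes of the smallest p per pathway list, genes needed to account for a count of 5 or fewer, and the 5 genes closest to Nr3c1 and Fkbp5, except that some results under this rule are not reported here. Mt1 was named for its kinship to Mt2, outside this rule and after its values were seen.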

Additional observations from a re-analysis of the deposited data

How the results depend on the processing

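The number of genes called over the whole table, 0 in edgeR, was 858 with DESeq2 (460 higher, 398 lower), 17 with limma on log2(FPKM + 1) and 2 on log2(FPKM + 0.1). It was 2 with a mean FPKM of at least 5, 1 with muscle score as covariate, and 1 in an alternative added after seeing the data, edgeR with adjusted deviances. Of the 10 glucocorticoid genes DESeq2 called 4 and every other setting 0. Their median log2 fold change of −0.91 was −0.67 and −0.72 with limma on log2(FPKM + 1) and log2(FPKM + 0.1), and lay between −1.11 (without osimertinib 1) and −0.72 (without osimertinib 2) when a library was left out. Mt2 changed sign without control 2 (−0.11), and its values with a library left out reached 0.479. Where all 30 other induced targets were tested, 22 (without control 2) to 26 were lower. Among the 10 genes, the number with groups that did not overlap, 6, was 5 in FPKM, where Sgk1 overlapped. In FPKM 4.07% of all tested genes were lower without overlap, and in CPM 9.38%. The number was 5 of 9 with a mean FPKM of at least 5, which removes Hsd11b1, against 8.75% of genes tested there. Without control 2 it was 8, where 23.3% of all tested genes were lower without overlap. Over all settings the median of all tested genes lay between −0.05 and 0.10.

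With the replicate block the median was −0.80 and 0 of the 10 genes passed. Same-numbered libraries share only a number: their deviations from the group means correlated at 0.222, 0.029 and −0.115, and control 2 correlated best with osimertinib 3 (0.065).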

Other observations

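The ratio of the paralogs Mt2 and Mt1, in FPKM, lay from 2.31 to 2.60 in control skin and from 2.82 to 3.50 under osimertinib. Every treated ratio was above every control ratio, while the CPM of each gene overlapped between the groups.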
